A study of Mus musculus with 6 samples.

Results

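The receptors and ligands of the Egfr family were followed in mouse myoblasts grown on fibronectin and on collagen I. The family as listed here held 9 genes, the receptors Egfr, Erbb2 and Erbb3 and the ligands Hbegf, Ereg, Areg, Tgfa, Btc and Nrg1. Probe sets that the array's annotation assigns to exactly 1 gene symbol, and to one of these genes, were kept, which gave 19 of 45037 probe sets, control probe sets left out, for 8 of the 9 genes. Areg had no probe set under this rule and was not analysed here. The genes were chosen by family and with the log2 differences between the coatings in these data known, Egfr standing out among them, so the differences between coatings of its members are given as a description and not as tests.

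Myoblasts, the dividing precursors of skeletal muscle, had been isolated from the hindlimbs of C57BL/6JRj males aged 9 to 15 weeks. They were grown for 72 hours on fibronectin (3 samples) or on collagen I (3 samples), and all 6 samples shared the medium, Ham's F-10 containing 2.5 ng/ml basic fibroblast growth factor and 20% serum, and a brief trypsin treatment before RNA was extracted. No genetic alteration is labelled in either group. The labels do not say whether the 3 samples of a coating came from separate animals or cultures, so p-values cover the variation among these samples alone, which could be technical.

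The Egfr family consists of receptor tyrosine kinases that pair at the cell surface when a ligand binds, and then switch on the Ras and ERK cascade and PI3 kinase. Egfr binds Egf, Tgfa, Areg, Ereg, Btc and Hbegf, and Erbb3 binds neuregulins such as Nrg1. Erbb2 has no known ligand of its own and serves as a partner of the other receptors. The ligands are made as membrane proteins and are released by cell-surface proteases. In muscle, neuregulin signalling is known from the nerve-muscle synapse and muscle spindles, and Egfr has been linked to the activation and division of muscle stem cells.

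Values are the authors' log2 signals, in which a difference of 1 is a 2-fold change. A probe set was tested if its mean over the 6 samples reached 2.32, the median over all probe sets, and 10 of the 19 member probe sets did. The call used below is an adjusted p under 0.05 in limma over all 22519 probe sets tested. Sample medians ran from 2.29 to 2.33 on fibronectin and from 2.35 to 2.38 on collagen, so every fibronectin median lay below every collagen median. Across probe sets, samples of the same coating correlated at 0.997 to 0.998 and samples of different coatings at 0.994 to 0.995.

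Egfr had the largest coating difference of the 8 measured genes. On fibronectin the 2 brightest Egfr probe sets read 3.19-fold and 3.56-fold higher than on collagen, while Erbb2 differed by 0.03 on the log2 scale. Among the ligands Hbegf and Ereg were higher by up to 1.31-fold and Btc was 1.46-fold lower. Over the whole array 32.0% of tested probe sets were called, 16.2% higher and 15.8% lower on fibronectin. Of the 10 tested member probe sets 6 were called higher, all of Egfr, Hbegf or Ereg, and 1, of Btc, lower. The same 7 had samples that did not overlap between coatings, as had 47.7% of all tested probe sets. The members were chosen with this contrast in view, so nothing is read from these counts.

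The promoters of Egfr and Btc, the receptor and the ligand that differed most and in opposite directions, are shown for reference. They are RefSeq sequences of build GRCm38.p6, running from 250 bases before to 50 bases after the gene's start, and 4 of the 8 measured members had one. Capitals mark matches, on either strand, to any of 5 motifs. These were the GC box GGGCGG, the TATA box TATAAA, the AP-1 site TGANTCA, the TEAD site CATTCC and the E-box CAGCTG, of the kind that Myod1 binds.
Egfr promoter (chr11:16751953-16752252, plus strand): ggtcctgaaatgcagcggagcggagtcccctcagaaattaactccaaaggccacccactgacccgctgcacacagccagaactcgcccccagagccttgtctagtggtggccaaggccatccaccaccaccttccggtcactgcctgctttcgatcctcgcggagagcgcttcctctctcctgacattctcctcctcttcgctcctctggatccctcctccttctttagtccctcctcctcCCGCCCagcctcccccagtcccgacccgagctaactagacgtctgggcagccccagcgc
Btc promoter (chr5:91402945-91403244, minus strand): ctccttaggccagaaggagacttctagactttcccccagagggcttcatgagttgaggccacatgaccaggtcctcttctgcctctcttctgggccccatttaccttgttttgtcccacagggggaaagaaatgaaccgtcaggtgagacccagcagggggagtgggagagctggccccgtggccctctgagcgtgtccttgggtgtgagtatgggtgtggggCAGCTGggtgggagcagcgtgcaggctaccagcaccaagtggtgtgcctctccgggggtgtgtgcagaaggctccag
The Egfr window held 1 GC box, on the opposite strand, beginning 9 bases before the start, and none of the other 4 motifs. A GC box was present in 35.7% of all 32851 promoters of this length. The Btc window held 1 E-box, beginning 27 bases before the start, a motif found in 16.3% of promoters. Of the other members with a sequence, Tgfa had 2 GC boxes and Erbb2 had 1 TEAD site, which 14.7% of promoters held. A match of letters is not evidence of binding.

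Egfr, the receptor for most of the listed ligands, was represented by 7 probe sets, and they did not all behave alike. Probe set 1424932_at read 5.02, 4.97 and 4.92 in the fibronectin samples and 3.40, 3.13 and 3.36 in the collagen samples. Probe set 1435888_at read 5.01, 5.02 and 5.06 on fibronectin and 3.28, 3.27 and 3.04 on collagen. All 3 fibronectin samples lay above all 3 collagen samples on both, by more than 1.5 log2 units at the closest pair. The mean differences were 1.67 (SE 0.08) and 1.83 (SE 0.07), and they ranked 6 and 5 among all tested probe sets ordered from the highest difference. Both coatings lay above the brightness filter on these probe sets, at 4.97 ± 0.05 on fibronectin and 3.30 ± 0.14 on collagen for 1424932_at, and at 5.03 ± 0.03 on fibronectin and 3.20 ± 0.13 on collagen for 1435888_at (SD, n = 3).

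Probe set 1460420_a_at, of a type designed to read several transcripts of 1 gene, showed a smaller difference. It read 3.95, 3.96 and 3.94 on fibronectin and 3.52, 3.42 and 3.72 on collagen, a difference of 0.40 (SE 0.08), or 1.32-fold. The fibronectin samples stood within 0.02 of each other, and the collagen samples were all lower and more spread, with an SD of 0.01 on fibronectin and 0.15 on collagen.

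The other 4 Egfr probe sets were below the filter in every sample and were not tested. Probe set 1432647_at read between 1.37 and 1.80 on fibronectin and between 1.71 and 1.85 on collagen, and 1454313_at between 1.45 and 1.64 on fibronectin and between 1.46 and 1.70 on collagen. Neither separated the coatings. Probe set 1451530_at, which was designed from the same sequence record as 1424932_at, read 1.76, 1.58 and 1.56 on fibronectin and 1.47, 1.48 and 1.52 on collagen, a non-overlapping difference of 0.14. Probe set 1457563_at lay at the bottom of the scale, between 0.28 and 0.38 on fibronectin and between 0.19 and 0.38 on collagen, with the same value in 4 of the 6 samples.

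**Figure D1:**
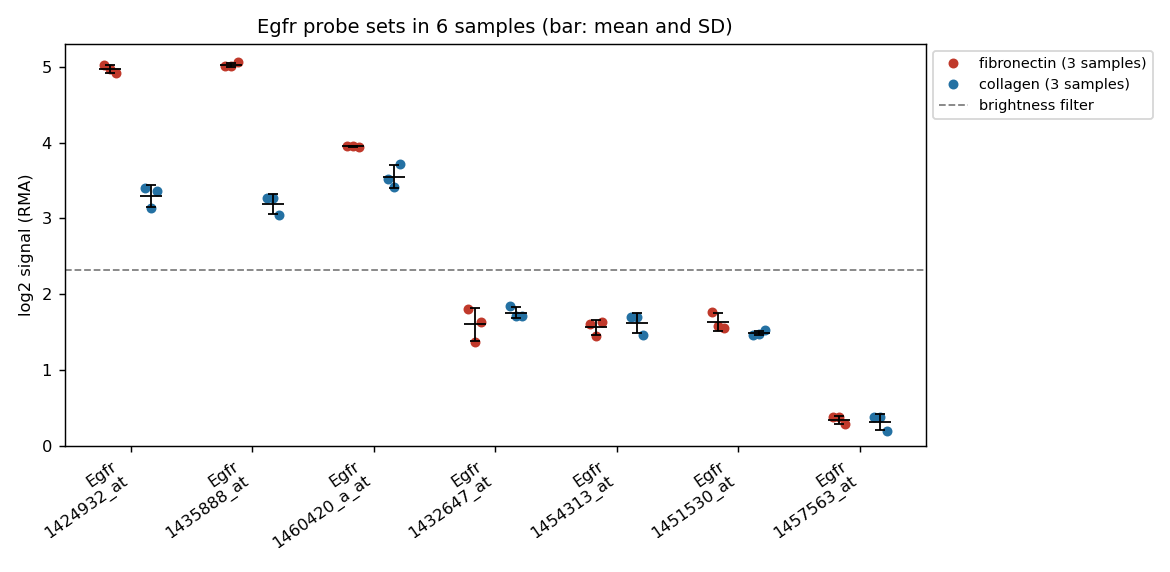
Log2 signal of the 7 Egfr probe sets in each of the 3 fibronectin samples (red, left of each pair) and 3 collagen samples (blue), with the mean and SD as a black bar and the brightness filter of 2.32 as a dashed line. Probe sets 1424932_at and 1435888_at separate widely, 1460420_a_at separates by 0.40, and the other 4 lie under the filter on both coatings.

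The tested Egfr probe sets thus spanned 1.43 log2 units in their coating difference. Of 5100 genes with at least 2 tested probe sets the median span was 0.14. Among the 62 of them whose brightest probe set differed by at least 1 log2 unit it was 0.24. These genes were not matched to Egfr in the number of tested probe sets, 3 for Egfr, with which a span can widen. In that set of 62 only 2 genes, Egfr among them, spanned 1.43 or more. The size given for Egfr therefore depended on the probe set, and averaging all 7 probe sets gave a difference of 0.55, still called. The reference used here lists 2 curated Egfr transcripts, and which probe sets read which of them was not analysed here.

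Erbb2, the shared partner receptor, had nearly the same signal on both coatings. Its probe set read 4.09, 4.10 and 4.06 on fibronectin and 4.10, 4.02 and 4.06 on collagen. The groups overlapped, and the difference was 0.03 with an SE of 0.05, not called.

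Erbb3, the neuregulin receptor with a weak kinase of its own, had 2 probe sets. The brighter, 1434606_at, read 4.01, 4.14 and 4.26 on fibronectin and 4.17, 4.39 and 4.41 on collagen. The lowest collagen sample fell inside the fibronectin range, and the difference of -0.18 (SE 0.09) was not called. The other, 1452482_at, was below the filter, at 1.36 ± 0.17 on fibronectin and 1.19 ± 0.26 on collagen (SD, n = 3), with overlapping samples and a difference of the opposite sign.

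Hbegf, a heparin-binding ligand of Egfr, was higher on fibronectin on both of its probe sets, which were designed from 1 sequence record. Probe set 1418350_at read 6.62, 6.38 and 6.42 on fibronectin and 6.03, 5.96 and 6.25 on collagen, a difference of 0.39 (SE 0.09). Probe set 1418349_at read 6.21, 5.98 and 6.08 on fibronectin and 5.65, 5.68 and 5.84 on collagen, a difference of 0.36 (SE 0.08). The coatings did not overlap on either, and fibronectin sample 1 and collagen sample 3 were the highest of their groups on both. Both were called, but the call of 1418350_at was lost without fibronectin replicate 1 (0.32), collagen replicate 1 (0.37) or collagen replicate 2 (0.33), and in the fit without a brightness filter.

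Ereg, or epiregulin, which activates Egfr and Erbb4, was higher on fibronectin by less. Its probe set read 5.04, 5.004 and 5.13 on fibronectin and 4.68, 4.89 and 4.85 on collagen. The groups did not overlap, although the lowest fibronectin and the highest collagen sample stood close together, at 5.004 and 4.89. The difference of 0.25 (SE 0.07), or 1.19-fold, was called, and the call was lost without fibronectin replicate 1 (0.26) or 3 (0.21), without collagen replicate 1 (0.19) or 3 (0.27), and without a brightness filter.

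Btc, or betacellulin, a ligand of Egfr and Erbb4, was the one tested member called lower on fibronectin. Probe set 1435541_at read 4.48, 4.56 and 4.53 on fibronectin and 5.06, 5.01 and 5.13 on collagen. Every fibronectin sample lay below every collagen sample, and the difference was -0.54 (SE 0.05). Its other probe set, 1421161_at, was under the filter at 0.63, 0.38 and 0.46 on fibronectin and 0.75, 0.85 and 0.64 on collagen. These values lay in the same order but near the floor of the array, and were not tested.

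Tgfa, a ligand of Egfr, had 1 tested probe set of 3. Probe set 1421943_at read 4.08, 3.86 and 4.05 on fibronectin and 3.79, 4.02 and 3.98 on collagen, with a difference of 0.06 (SE 0.08), not called. Without collagen replicate 1 that difference was -0.0079. The dimmer probe sets averaged 2.19 ± 0.20 on fibronectin and 2.02 ± 0.06 on collagen for 1450421_at, and 1.76 ± 0.24 on fibronectin and 1.85 ± 0.03 on collagen for 1421942_s_at, whose type can also read related transcripts (SD, n = 3). All 3 overlapped between coatings.

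Nrg1, a neuregulin that binds Erbb3, had 1 probe set. It read 0.77, 0.47 and 0.69 on fibronectin and 0.59, 0.88 and 0.66 on collagen, under the filter and overlapping. A single probe set may not read all of the gene's many transcripts, so this says only that this probe set gave no signal above the filter.

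**Figure D2:**
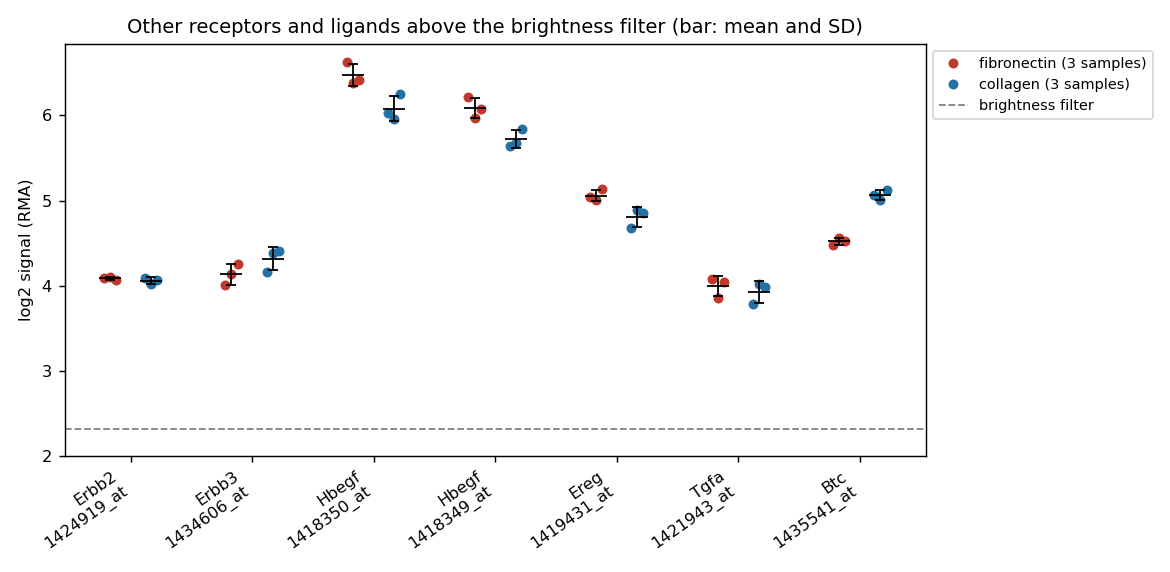
Log2 signal of the 7 tested probe sets of the family other than those of Egfr, in the 3 fibronectin samples (red, left of each pair) and the 3 collagen samples (blue), with mean and SD as a black bar and the brightness filter of 2.32 dashed; the axis starts at 2. Both Hbegf probe sets and Ereg lie higher on fibronectin, Btc lies lower, and Erbb2, Erbb3 and Tgfa overlap.

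**Figure D3:**
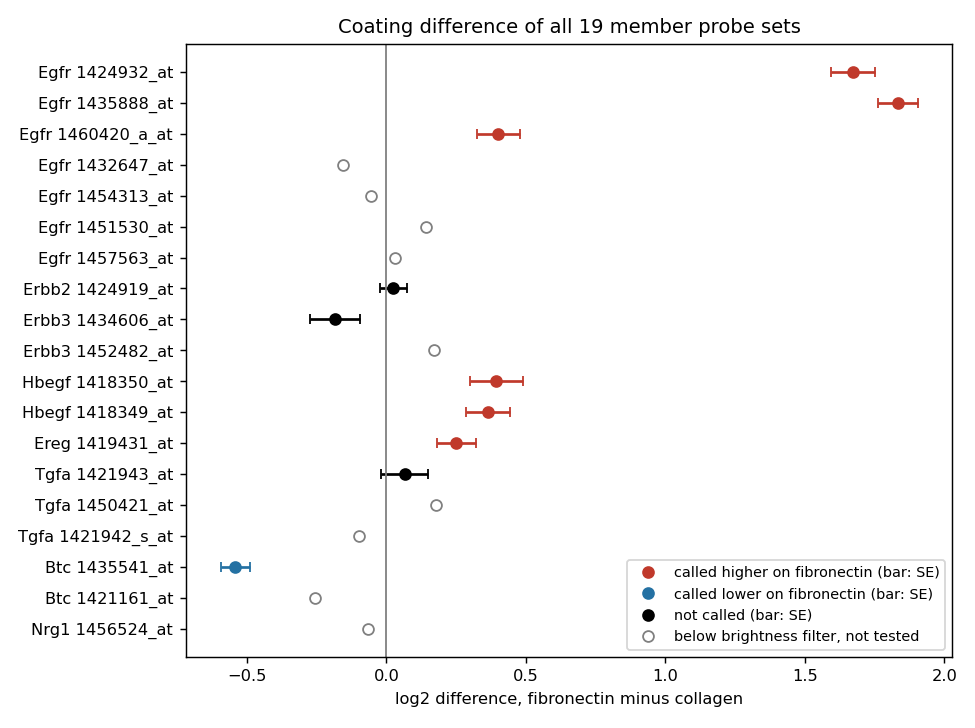
Log2 difference, fibronectin minus collagen, of the 19 member probe sets, with the limma SE as a bar for the 10 tested and hollow points for the 9 below the brightness filter. Egfr probe sets 1435888_at and 1424932_at stand at 1.83 and 1.67, and the other tested probe sets lie between -0.54 and 0.40.

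The remaining receptor and ligands of the family were dim. Of Erbb4, Egf, Epgn, Nrg2, Nrg3 and Nrg4, each by its brightest probe set, 1 passed the filter. That was the neuregulin Nrg2, at 2.37 ± 0.12 on fibronectin and 2.35 ± 0.07 on collagen (SD, n = 3; limma adjusted p = 0.811). Erbb4, the other neuregulin receptor, averaged 0.33 on fibronectin and 0.35 on collagen, and Egf 1.75 on fibronectin and 1.77 on collagen. Nrg3 averaged 0.64 on fibronectin and 0.58 on collagen, and Nrg4 1.54 on fibronectin and 1.41 on collagen. Epgn, or epigen, an Egfr ligand, averaged 1.48 ± 0.08 on fibronectin and 1.24 ± 0.02 on collagen. Its samples did not overlap, at a difference of 0.24, and although it was under the filter it was called in a gene fit without one, in which 18.2% of all genes were called. The 9 member probe sets under the filter were not called when the filter was left out of the probe set fit.

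Genes that act with the receptors were taken from lists for 6 roles, none of which held a member, with each gene read by its brightest probe set. Of 105 listed genes 98 had a probe set and 88 were tested, among 10950 genes in all. Of the 88, 11 rose and 22 fell on fibronectin, or 37.5% called, against 40.0% of all genes (19.9% higher and 20.2% lower). The median difference was -0.06, against 0.0041 over all genes tested. With the samples scaled to a common median the lists had 12 higher and 13 lower genes, and 64.7% of the calls over all genes were higher, in place of 49.6%. Where other probe sets of a listed gene are given below, their calls are those of the fit over 22519 probe sets, in which 32.0% were called.

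Of 10 tested genes that release the ligands from the membrane, 2 rose and 2 fell, with a median of 0.02. Adam12, a metalloprotease that can cleave Hbegf, rose by 0.53 (SE 0.06, adjusted p = 0.000574), to 3.80 ± 0.07 on fibronectin against 3.27 ± 0.10 on collagen (SD, n = 3). Adam19, a related protease, rose by 0.22 (adjusted p = 0.00676). Frmd8, which stabilises the Adam17 sheddase complex, fell by 0.51 (SE 0.05, adjusted p = 0.000185). Rhbdl2, a rhomboid protease, fell by 0.93 (SE 0.12, adjusted p = 0.000685), to 2.39 ± 0.19 on fibronectin, close to the filter, against 3.32 ± 0.19 on collagen (SD, n = 3). Adam17, the main sheddase of several Egfr ligands and named after its value was seen, had a difference of -0.06 (adjusted p = 0.328), and its other probe sets were at 0.10 and 0.09, not called.

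Among 23 tested adaptors and proximal signalling proteins 1 rose and 8 fell, with a median of -0.02. The falls included those of Pik3r1, a regulatory subunit of PI3 kinase, by 0.48 (SE 0.07, adjusted p = 0.00122), the transcription factor Stat5a by 0.60 (SE 0.10, adjusted p = 0.00241), the docking protein Gab2 by 0.43 and Stat3 by 0.29. Grb2 and Shc1, the adaptors that link the receptor to Ras and named after their values were seen, fell by 0.18 and 0.21 (adjusted p = 0.0227 and 0.0229) on their brightest probe sets. The other Grb2 probe set read 6.83 on fibronectin and 6.91 on collagen, and the other Shc1 probe set 3.94 on fibronectin and 3.91 on collagen, neither called. The Grb2 call was lost without fibronectin replicate 2 (-0.18) or 3 (-0.14), without collagen replicate 2 (-0.19) or 3 (-0.18), without a brightness filter and with samples centred (-0.12). The Shc1 call was lost without fibronectin replicate 1 (-0.17) or 2 (-0.22), without collagen replicate 1 (-0.19) or 2 (-0.20), without a brightness filter, with samples centred (-0.16) and with its probe sets averaged (-0.09). Ptpn11, a phosphatase needed for full ERK activation, was the one that rose, by 0.21 (adjusted p = 0.0153). That call was lost without fibronectin replicate 1 (0.18) or 2 (0.20) or collagen replicate 2 (0.19), and with all its probe sets averaged (0.06). Gab2 likewise lost its call in the average of its probe sets (-0.24).

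Of the list of Ras and ERK cascade genes 8 of 14 were measured and tested, and 1 rose and 3 fell. Rasa1, which switches Ras off, fell by 0.50 (SE 0.06, adjusted p = 0.000521), to 10.05 ± 0.09 on fibronectin against 10.55 ± 0.05 on collagen (SD, n = 3). Its other probe sets were at -0.55, called lower, and -0.08, not called. Rps6ka3, a kinase activated by ERK, fell by 0.28 and the Raf kinase Araf by 0.22. The scaffold Ksr1 rose by 0.23 (adjusted p = 0.00756). With probe sets averaged, Araf (-0.13) and Ksr1 (0.02) did not pass.

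Inhibitors of the receptors and proteins that carry them to degradation had 3 of 22 tested genes higher and 2 lower, with a median of -0.03. Socs5 and Socs4, which promote the breakdown of Egfr, rose by 0.40 (SE 0.05, adjusted p = 0.000685) and 0.20 (adjusted p = 0.0142), and the phosphatase Ptpn12 rose by 0.25. Rnf41, a ubiquitin ligase for Erbb3, fell by 0.35 (SE 0.06, adjusted p = 0.00214), and the sorting protein Stam fell by 0.18 (adjusted p = 0.0145). Rnf41 and Stam did not pass with probe sets averaged (-0.15 and -0.13). Socs4 did not pass without fibronectin replicate 3 (0.18) or collagen replicate 2 (0.19), nor Stam without fibronectin replicate 2 (-0.16) or 3 (-0.17), with samples centred (-0.12) or with no brightness filter. Errfi1, an inhibitor that binds Egfr and is induced by its signal, was named after its value was seen and read 9.63 on fibronectin and 9.65 on collagen (adjusted p = 0.769).

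Transcripts known to be induced by ERK signalling moved both ways, with 4 of 24 tested genes higher and 7 lower and a median of -0.10. Spry1, a feedback inhibitor of receptor kinases, fell by 1.02 (SE 0.11, adjusted p = 0.000289), the single change of at least 2-fold among the 88 genes. Plaur, the urokinase receptor, fell by 0.52 and Dusp4, a phosphatase of ERK, by 0.42. Myc rose by 0.32 (SE 0.045, adjusted p = 0.00122) and the receptor kinase Epha2 by 0.36 (SE 0.06, adjusted p = 0.00322). Other growth factors are also known to induce genes of this list.

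**Figure D4:**
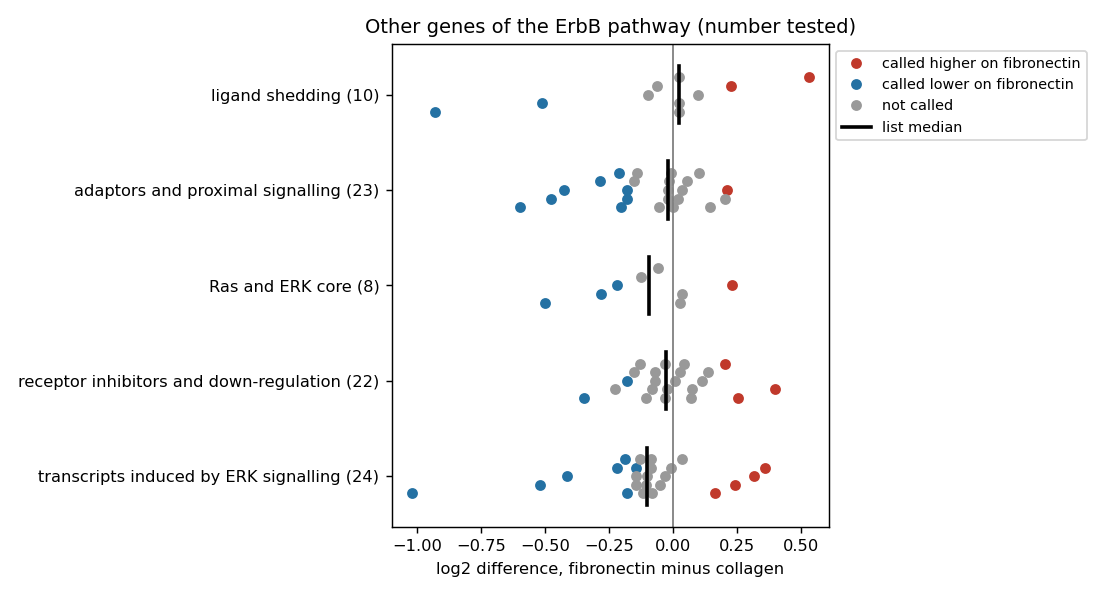
Log2 difference, fibronectin minus collagen, of the tested genes of 5 lists of the pathway, 1 point a gene, coloured by the call at an adjusted p under 0.05 (limma, over 10950 genes), with a black line at each list's median. Every list holds calls in both directions, and the medians lie between -0.10 and 0.02.

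Genes with the pattern nearest to that of Egfr were found by the root mean square distance, over the 6 samples, between log2 values centred on each gene's mean and those of probe set 1424932_at. Over 10943 genes other than the listed members the nearest were Sostdc1 (distance 0.15), Nebl (0.16), Slc35f1 (0.17), Akap12 (0.17) and Col5a1 (0.18). Their coating differences were 1.51, 1.44, 1.43, 1.85 and 1.35. The distance is set mostly by the step between coatings. Taken from probe set 1435888_at the nearest 5 were Akap12, Sostdc1, Nebl, Cxadr and Cth, so 3 genes were shared. From 1460420_a_at, the remaining tested Egfr probe set, they were Polr3g, Ndc80, Psg17, Pdxp and Gjc1, at distances of 0.018 to 0.043 and coating differences of 0.33 to 0.43, and none of these was among the nearest 5 of either other probe set.

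**Figure D5:**
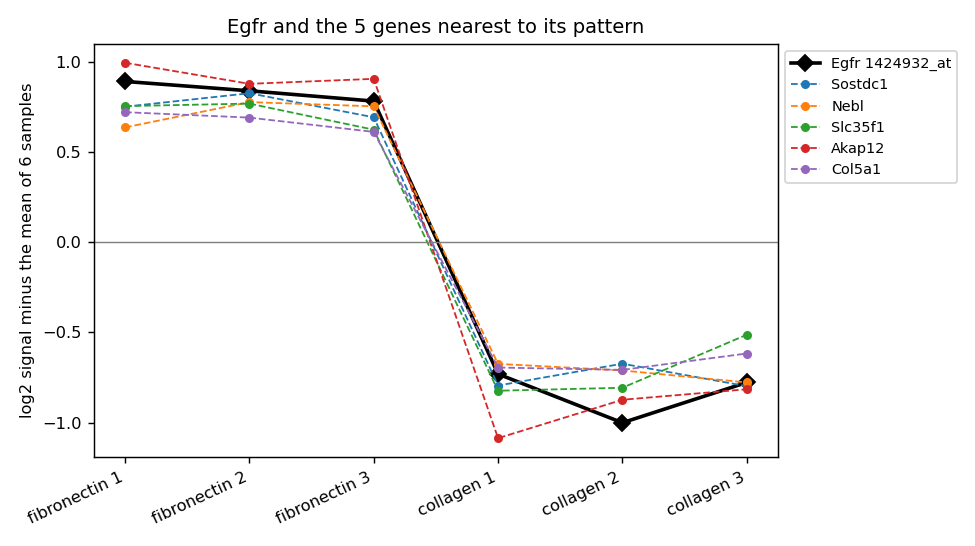
Log2 signal minus the mean of the 6 samples for Egfr probe set 1424932_at (black) and its 5 nearest genes (coloured), in the 3 fibronectin samples (left) and the 3 collagen samples (right). All 6 genes stand above their mean on fibronectin and below it on collagen.

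The identity of the cells was checked with marker lists. All 8 myoblast markers passed the filter, with Myod1 at 10.04 on fibronectin and 10.10 on collagen and a list mean between 7.74 and 7.80 on fibronectin and between 7.88 and 7.97 on collagen. In that list 1 gene rose and 3 fell, among them Myog, a factor of differentiation, by 0.83 (adjusted p = 0.00132). All 6 endothelial and all 3 measured adipocyte markers were under the filter. Of 7 measured markers of fibroblasts, cells that can express Egfr, 2 passed the filter and both rose, Cd34 by 0.58 and Col3a1 by 0.21. The Col3a1 call was lost without fibronectin replicate 2 (0.19) or 3 (0.21), without a brightness filter and with its probe sets averaged (0.12). Pdgfra, Dcn, Lum, Dpt and Tcf21 were under the filter, and the list mean lay between 2.52 and 2.63 on fibronectin and between 2.38 and 2.45 on collagen. These untested markers went both ways, with Pdgfra (0.58), Lum (0.02) and Tcf21 (0.02) higher on fibronectin and Dcn (-0.33) and Dpt (-0.09) lower. Among them only Pdgfra and Dcn had samples that did not overlap between coatings. Pdgfra had the same value, 1.70, in all 3 fibronectin samples. The share of probe sets without overlap was not computed for those under the filter. Of 6 leukocyte markers 3 passed the filter and 2 of these fell, Cd68 (-1.28) and Cd14 (-0.46). Csf1r had a difference of -0.03 and was not called (limma adjusted p = 0.822). Adgre1 (0.05), Itgam (0.03) and Ptprc (0.06) were under the filter. Ptprc averaged 0.53 on fibronectin and 0.47 on collagen. Of 4 measured markers of Schwann cells, which are known for Erbb3, Sox10 and Ngfr passed the filter. Ngfr fell by 1.38, while Sox10 had a difference of 0.05 and was not called (limma adjusted p = 0.559). The list mean lay between 2.40 and 2.52 on fibronectin and between 2.72 and 2.88 on collagen. Of 6 epithelial markers Krt18 and Epcam passed the filter, at adjusted p of 0.287 and 0.624. Mural markers had 3 of 5 above it, of which Rgs5 fell by 1.24. Cspg4 (-0.35, limma adjusted p = 0.0792) and Notch3 (0.12, limma adjusted p = 0.334) were not called. The part of other cells in the values of Egfr, Erbb3 and the ligands was not tested, and in these bulk samples fewer cells of a type and less RNA per cell cannot be told apart.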

How the data were processed

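The authors deposited log2 probe set signals of 6 arrays. Per the submitters' processing notes, the tools were RMA and Affymetrix Expression Console. RMA subtracts background, equalises the arrays by quantiles and compresses changes of dim probe sets. Their versions and settings, and any scan date, are not named in the labels, and batches were not tested. Groups came from the sample titles.

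The deposited log2 values were used unchanged. Of 45101 probe sets 64 controls were left out, 34945 had 1 gene symbol, 932 several and 9160 none. Symbols were updated through a GRCm38.p6 gene table, in which 18032 of 18194 gene identifiers were found. Probe sets, and genes by their brightest probe set, were fitted with limma 3.58.1 in R 4.3.3 (lmFit and eBayes without covariates, two-sided). P-values were adjusted by Benjamini-Hochberg over every feature whose mean reached 2.32. An exact permutation test with 3 samples a group cannot reach 0.05, and none was run. Array signals carry no molecule counts, so the number of samples limits the precision.

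The members, gene lists and naming rule were chosen with earlier results of these data known. The text names every member probe set, up to 5 called genes of each list by smallest p, all of the small list of other receptors and ligands, and the 5 genes nearest to Egfr. Nothing in the labels says that the replicate numbers pair samples, so the main fit had no pairing. Same-numbered samples of the coatings correlated at 0.12, -0.0042 and 0.077 in their deviations from the group means. That does not settle whether they were paired. On simulated data with 22519 probe sets, of which 50 were changed at each fold, the fit recovered 34% at 1.25-fold and 84% at 1.5-fold. It recovered 96% at 2-fold and 100% at 3-fold, with 14 false calls among 171. In the real data 32.0% of tested probe sets were called, a far larger share than was changed there. The threshold depends on that share, so these rates need not hold for the real comparison. Python 3.11.15 with matplotlib 3.10.9 drew the figures.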

Additional observations from a re-analysis of the deposited data

How the results depend on the processing

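Of 958 values recomputed under 16 alternatives, 863 kept their direction and side of the threshold (counts: within 1.5 times). Egfr probe sets 1424932_at and 1435888_at were called in all 14 alternatives run for them, at 1.59 to 1.73 and 1.76 to 1.89, as was Btc 1435541_at, at -0.57 to -0.49. With 1 sample left out, 4 to 6 member probe sets were called higher and 1 lower. Pathway genes were then 8 to 10 higher and 16 to 22 lower. Over the array probe sets were 2509 to 3313 higher and 2631 to 3194 lower, and genes 1623 to 2071 higher and 1781 to 2069 lower. Over the same samples left out, Tgfa ran from -0.0079 to 0.13 and Nrg2 from -0.024 to 0.089, Errfi1 from -0.077 to 0.011 and Sox10 from -0.0072 to 0.082, all uncalled. Errfi1 was at 0.033 with samples centred, and with probe sets averaged Adam17 was at 0.042, Myod1 at 0.039 and Epcam at 0.011. Without a brightness filter 2080 probe sets were higher, and 14 pathway genes were lower. With the 75th percentile filter 2 member probe sets were called higher and 0 lower. Only the Hbegf probe sets, both of 1 gene, were bright enough to be tested. Over the array 2989 probe sets were then higher and 2431 lower. With samples centred 13 pathway genes were lower, and 5106 probe sets were higher and 2584 lower over the array. At an adjusted p of 0.01 there were 3 member probe sets higher and 1 lower, and 7 pathway genes higher and 12 lower. Over the array there were 1681 probe sets higher and 1966 lower, and 1170 genes higher and 1399 lower. The replicate block, which pairs samples by number only, gave 6 member probe sets higher and 1 lower. It gave 11 pathway genes higher and 20 lower, and 3384 probe sets of the array higher and 3350 lower. In the gene fit Erbb3 was called lower with array weights (-0.22), with the replicate block (-0.18) and without collagen replicate 1 (-0.26). The spread of 3 samples a group and the low signal of 9 of the 19 member probe sets limit what can be seen of the family.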
